A study of Mus musculus with 9 samples.

Results

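Genes used as markers of hepatic stellate cells and pericytes were followed in mouse liver: Rgs5, Lrat, Des, Vim, Pdgfrb, Reln, Acta2, Tagln, Hgf and Ngfr. They were taken by name from a list, and each was read from its brightest probe set on the array. All 10 of 10 were measured, among 19938 genes in all, and each had 1 probe set. Liver RNA from 9 mice had been hybridised to Affymetrix gene arrays, 1 array per mouse, in 3 groups of 3. The wild-type mice were C57BL/6J. The Clock mutant mice carried Clock-D19, a mutation that yields a CLOCK protein able to pair with BMAL1 but poor at activating transcription. The rescue mice were Clock-D19 mutants given wild-type Clock in the pLIVE vector, as 35 µg of plasmid pushed into the tail vein (hydrodynamic injection) in week 10. All 3 groups were fed a diet with 45% fat for 5 weeks from 10 weeks of age, under 12 h of light and 12 h of dark, and were killed at zeitgeber hour 10. The pLIVE vector drives its insert from a liver-directed albumin promoter, and hydrodynamic injection delivers DNA mainly to hepatocytes. An injection of the wild-type or Clock mutant mice is not described in the labels, and the strain background of the mutation is not given there.

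Stellate cells are the retinoid-storing mesenchymal cells of the liver, lying between hepatocytes and the sinusoidal endothelium, where they act as pericytes. In the quiescent state they hold vitamin A as retinyl esters made by the LRAT enzyme, and they secrete HGF, the growth factor for hepatocytes. When activated, as in injury, they lose retinoid and take on contractile proteins such as smooth muscle actin, encoded by Acta2. CLOCK and BMAL1 act by binding E-box sequences in DNA, and the circadian clock runs in non-parenchymal liver cells as well as in hepatocytes.

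The promoters of the markers that changed in both comparisons with the mutant livers, Rgs5, Lrat and Vim, are shown together with that of Reln, the 1 marker whose window held the canonical E-box CACGTG. The windows run from 250 bases before to 50 bases after the gene start in RefSeq (build GRCm38.p6), 5′ to 3′ on the gene's own strand, and capitals mark each match to the general E-box CANNTG. They lie at chr1:169655251-169655550 on the plus strand for Rgs5, at chr3:82903925-82904224 on the minus strand for Lrat, at chr2:13574061-13574360 on the plus strand for Vim and at chr5:22344656-22344955 on the minus strand for Reln.
Rgs5: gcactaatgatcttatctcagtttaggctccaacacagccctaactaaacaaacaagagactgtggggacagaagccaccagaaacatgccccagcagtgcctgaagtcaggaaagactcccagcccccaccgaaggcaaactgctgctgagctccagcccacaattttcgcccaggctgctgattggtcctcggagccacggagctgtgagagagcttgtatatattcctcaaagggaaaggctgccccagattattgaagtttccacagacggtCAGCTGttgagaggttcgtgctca
Lrat: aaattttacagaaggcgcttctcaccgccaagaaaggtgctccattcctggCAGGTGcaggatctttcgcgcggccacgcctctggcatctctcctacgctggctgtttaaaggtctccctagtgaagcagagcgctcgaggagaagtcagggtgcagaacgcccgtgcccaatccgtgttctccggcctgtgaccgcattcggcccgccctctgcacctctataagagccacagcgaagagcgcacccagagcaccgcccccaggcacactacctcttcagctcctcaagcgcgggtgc
Vim: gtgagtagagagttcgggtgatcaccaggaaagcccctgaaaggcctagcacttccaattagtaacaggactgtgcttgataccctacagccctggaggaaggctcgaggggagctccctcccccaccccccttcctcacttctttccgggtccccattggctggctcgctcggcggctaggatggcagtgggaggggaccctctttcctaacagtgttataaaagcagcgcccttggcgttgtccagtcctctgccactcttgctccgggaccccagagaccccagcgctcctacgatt
Reln: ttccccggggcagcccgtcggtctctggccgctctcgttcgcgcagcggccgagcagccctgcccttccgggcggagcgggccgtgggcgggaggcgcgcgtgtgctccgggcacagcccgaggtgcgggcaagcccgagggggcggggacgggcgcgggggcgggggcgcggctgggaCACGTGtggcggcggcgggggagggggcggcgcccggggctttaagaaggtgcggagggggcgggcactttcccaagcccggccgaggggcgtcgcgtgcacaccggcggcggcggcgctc
Windows were used for 8 of the markers (9 windows, since Hgf had 2), and none for Pdgfrb and Tagln. Read on both strands, CACGTG was found in 1 of these 9 windows, that of Reln, where it starts 71 bases before the gene start, and in 7.15% of all 32851 windows of this length. CANNTG, which includes CACGTG, was found in 7 of the 9 windows and in 72.3% of all windows. The Rgs5 window held CAGCTG and the Lrat window CAGGTG, while the Vim window held no match. A promoter motif of another kind, the TATA box TATAAA, was found in the Vim window, 32 bases before the start, and in 13.6% of all windows. The E-box variant CACGTT and the D-box TTATGTAA were in none of the 9 windows, against 4.68% and 0.938% of all windows. These are matches of letters within short windows, and Reln was not among the genes that changed.

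Most markers were measured above the level of genes that liver does not use. Of the 10, 9 lay outside the dimmest 40% of genes, and the same 9 were above the 95th percentile of 1027 olfactory receptor genes on each of the 9 arrays. The exception was Des, the gene for the muscle intermediate filament desmin and a standard marker of rodent stellate cells, which was below that percentile on all 9 arrays (olfactory 95th percentile 5.74 to 6.04). Its values of 5.40 to 5.80 therefore need not be above background. Clock itself, the mutated gene, ranged from 9.24 to 9.97 in wild type, from 9.89 to 10.88 in the mutants and from 9.41 to 10.33 in the rescue mice. Clock was called higher in the mutants than in wild type, by 0.94 ± 0.26 (limma adjusted p = 0.0266), although the values overlapped. Whether its probe set separates the mutant from the plasmid transcript was not examined, so it does not check the labels. With 3 arrays per group the precision is limited. The p-values set each difference against the spread between these animals, which the model draws in part from all genes.

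The first comparison asked which markers differ between Clock mutant and wild-type liver. Rgs5, Lrat, Vim and Hgf were lower in the mutants by 1.82-fold, 1.75-fold, 1.41-fold and 1.40-fold, and none of the 10 rose. Of the 10 markers, 4 thus fell and 6 were not called (limma, adjusted p under 0.05, n = 3 per group). Across all genes tested, 15.4% were called (9.02% fell and 6.37% rose), or 3068 genes, a count that fell to 1695 when wild-type replicate 3 was left out and to 2035 when Clock mutant replicate 1 was. Among the 11963 genes outside the dimmest 40%, where 9 of the markers lie, 13.8% fell and 8.35% rose. The 4 genes were also lower on every mutant array than on any wild-type array, which held for 15.4% of all genes. The median difference of the 10 markers was -0.20 on the log2 scale, against 0.07 over all genes. Since whole liver was measured, fewer cells of a type and less RNA per cell cannot be told apart.

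**Figure D1:**
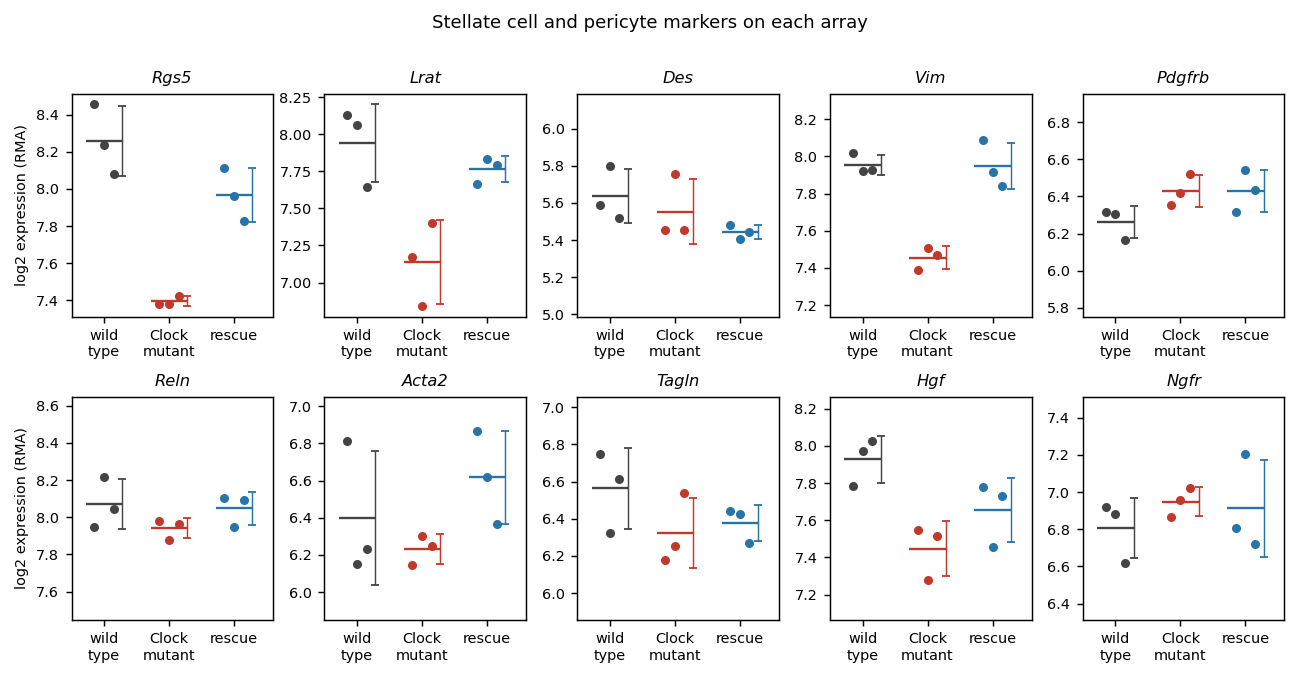
Log2 expression (RMA) of the 10 markers on each of the 9 arrays, 1 panel per gene with its own vertical axis; points are single mice, horizontal lines are group means and bars are the SD (n = 3). The mutant values of Rgs5, Lrat, Vim and Hgf lie below all wild-type values, and those of Rgs5, Lrat and Vim also lie below all rescue values.

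Rgs5 encodes a regulator of G-protein signalling that is a classic pericyte marker. In wild type it read 8.46, 8.24 and 8.08 (log2), in the mutants 7.38, 7.38 and 7.42, and in the rescue mice 8.11, 7.96 and 7.83. The mutant values were the closest together and lay below those of both other groups, while rescue and wild type overlapped. The difference between mutant and wild type was -0.86 ± 0.12 (SE; limma adjusted p = 0.00032), and only 200 of the 19938 genes had a lower difference.

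Lrat encodes lecithin retinol acyltransferase, which esterifies retinol for storage. It was measured at 8.13, 8.06 and 7.64 in wild type, at 7.17, 6.84 and 7.40 in the mutants and at 7.66, 7.83 and 7.79 in the rescue mice. All mutant values were below all others, and wild-type replicate 3 and Clock mutant replicate 3 were the closest across the first pair of groups. The difference between mutant and wild type was -0.81 ± 0.15 (limma adjusted p = 0.00273), with 259 genes lower.

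Vim encodes vimentin, the intermediate filament protein of mesenchymal cells, which endothelial cells and macrophages also make. Its level was 8.02, 7.92 and 7.93 in wild type, 7.39, 7.51 and 7.47 in the mutants and 8.09, 7.92 and 7.84 in the rescue mice. Wild-type and rescue values were interleaved, and the mutants lay apart below them. Vim differed between mutant and wild type by -0.50 ± 0.10 (limma adjusted p = 0.00462).

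Hgf encodes hepatocyte growth factor, which in liver comes from stellate and endothelial cells. Its level was 7.78, 7.97 and 8.02 in wild type, 7.55, 7.28 and 7.52 in the mutants and 7.78, 7.46 and 7.73 in the rescue mice. Mutant and wild type did not overlap, whereas rescue replicate 2 fell among the mutants and the other rescue values lay between the groups. The mutant difference was -0.48 ± 0.12 (limma adjusted p = 0.0158), and the call was lost when wild-type replicate 3 (-0.43, limma adjusted p = 0.0692) or Clock mutant replicate 2 (-0.39, limma adjusted p = 0.0612) was left out. With any other array left out, or under the 9 other alternatives, its adjusted p was 0.00739 to 0.0488.

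The contractile and activation markers showed no called difference. Acta2, the smooth muscle actin gene, read 6.81, 6.15 and 6.23 in wild type, 6.15, 6.30 and 6.25 in the mutants and 6.86, 6.62 and 6.37 in the rescue mice. Wild-type replicate 1 alone stood above the mutants, and without it the difference turned from -0.17 ± 0.16 to 0.04. Tagln, which encodes the actin-binding protein transgelin of smooth muscle, differed by -0.24 ± 0.13 (limma adjusted p = 0.223), with overlapping values of 6.32 to 6.75 in wild type, 6.18 to 6.54 in the mutants and 6.27 to 6.44 in the rescue mice. Pdgfrb, the receptor for the PDGF that drives stellate cell division and pericyte recruitment, was the 1 marker whose mutant values all lay above the wild-type values (6.35 to 6.52 against 6.16 to 6.32), at 0.17 ± 0.10 (adjusted p = 0.294). Such separation upward was seen for 20.3% of all genes. On some arrays these genes lay only a little above the olfactory 95th percentile, where differences can come out too small. Acta2 read 6.15 against 5.91 in Clock mutant replicate 1, and Tagln 6.25 against 6.02 in Clock mutant replicate 2. Pdgfrb read 6.16 against 5.85 in wild-type replicate 3. The lack of a call for Acta2, Tagln and Pdgfrb is therefore weak evidence of no change.

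The neural-type markers of stellate cells were also not called. Reln, the gene of the secreted glycoprotein reelin, was at 7.95, 8.22 and 8.05 in wild type, 7.98, 7.88 and 7.97 in the mutants and 8.10, 7.95 and 8.09 in the rescue mice. The 3 groups overlapped throughout, and the mutant difference was -0.13 ± 0.11 (limma adjusted p = 0.428, 95% interval -0.35 to 0.10). Ngfr, which encodes the low-affinity neurotrophin receptor p75, ranged from 6.62 to 6.92 in wild type, 6.87 to 7.02 in the mutants and 6.72 to 7.21 in the rescue mice. Its difference was 0.14 ± 0.13 (95% interval -0.14 to 0.42). The intervals of Reln and Ngfr do not cover a fall as large as that measured for Rgs5, but they leave room for smaller differences. Des differed by -0.08 ± 0.11, at levels that need not be above background, so that its interval sets no limit on a change.

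The second comparison asked which markers differ between rescue and mutant liver. As no injection of the mutants is described, the supplied Clock and the injection itself cannot be told apart. Rgs5 was 1.49-fold, Lrat 1.54-fold and Vim 1.41-fold higher in rescue than in mutant liver, so that 3 of the 10 markers rose, none fell and 7 did not pass. The share of all genes that rose was 2.61%, while 1.20% fell, and 3.95% rose among those outside the dimmest 40%. The differences were 0.57 ± 0.12 for Rgs5, 0.62 ± 0.15 for Lrat and 0.49 ± 0.10 for Vim (limma adjusted p = 0.0194, 0.0368 and 0.0204). The values of the 3 genes did not overlap between rescue and mutant, which was so in the upward direction for 11.8% of all genes and, among the markers, also for Acta2. Both comparisons use the same mutant arrays, so a low reading there lowers the first difference and raises the second, and the 2 are not independent.

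These calls depended on single arrays, while the differences kept their sign. The count of markers called was 0 without Clock mutant replicate 1, without rescue replicate 1 or without rescue replicate 2, 1 without Clock mutant replicate 2, and 2 without Clock mutant replicate 3 or rescue replicate 3. With any 1 of the 9 arrays left out, the difference ranged from 0.50 to 0.64 for Rgs5, from 0.48 to 0.76 for Lrat and from 0.42 to 0.54 for Vim, and adjusted p reached at most 0.0625, 0.116 and 0.0775. The number of all genes called in this comparison, 759, was 200, 323 and 340 without Clock mutant replicates 1, 2 and 3. Without rescue replicates 1, 2 and 3 it was 546, 202 and 201.

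**Figure D2:**
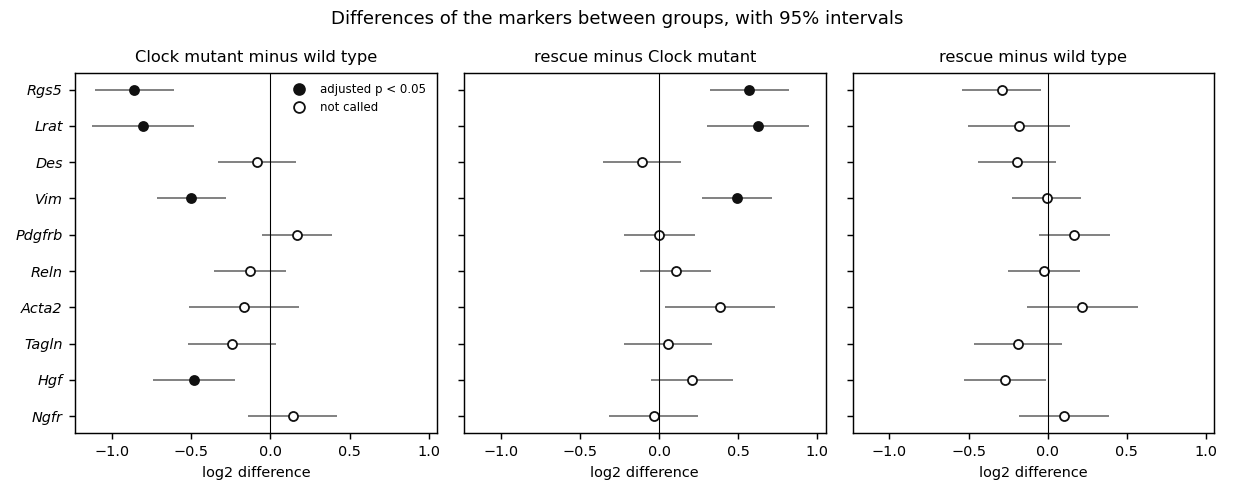
Differences between groups on the log2 scale for the 10 markers in the 3 comparisons, with 95% intervals from the model; filled points passed an adjusted p under 0.05 and open points did not. Rgs5, Lrat, Vim and Hgf are below 0 in the first panel, Rgs5, Lrat and Vim are above 0 in the second, and no marker is filled in the third.

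Hgf and Acta2 lay higher in rescue than in mutant liver without passing the test. Hgf differed by 0.21 ± 0.12 (limma adjusted p = 0.344) and Acta2 by 0.38 ± 0.16 (adjusted p = 0.196), with rescue replicate 1 highest for Acta2. The other 5 markers differed by -0.11 to 0.11. For Pdgfrb the difference was 0.00 ± 0.10, with a 95% interval of -0.22 to 0.22.

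Against wild type, no marker was called in rescue liver. In limma's test 0 of 10 passed after adjustment, and 2 of them, Rgs5 and Hgf, had an unadjusted p under 0.05, while 2.28% of all genes were called (0.928% higher and 1.35% lower). That is 454 genes, against 242 and 233 without wild-type replicates 1 and 3, and 282, 254 and 264 without rescue replicates 1, 2 and 3. Hgf and Des were the markers whose rescue values all lay below the wild-type values, as did those of 10.5% of all genes. Rgs5 was at -0.29 ± 0.12 (adjusted p = 0.262, 95% interval -0.54 to -0.04), Hgf at -0.27 ± 0.12 (adjusted p = 0.319) and Lrat at -0.18 ± 0.15 (95% interval -0.50 to 0.14). Vim was at -0.01 ± 0.10, with a 95% interval of -0.23 to 0.21. The order of the group means was mutant, rescue, wild type for Rgs5, Lrat, Vim and Hgf, and for none of the 4 did rescue and wild type differ beyond the test. A p that misses the threshold does not show that these levels are equal.

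**Figure D3:**
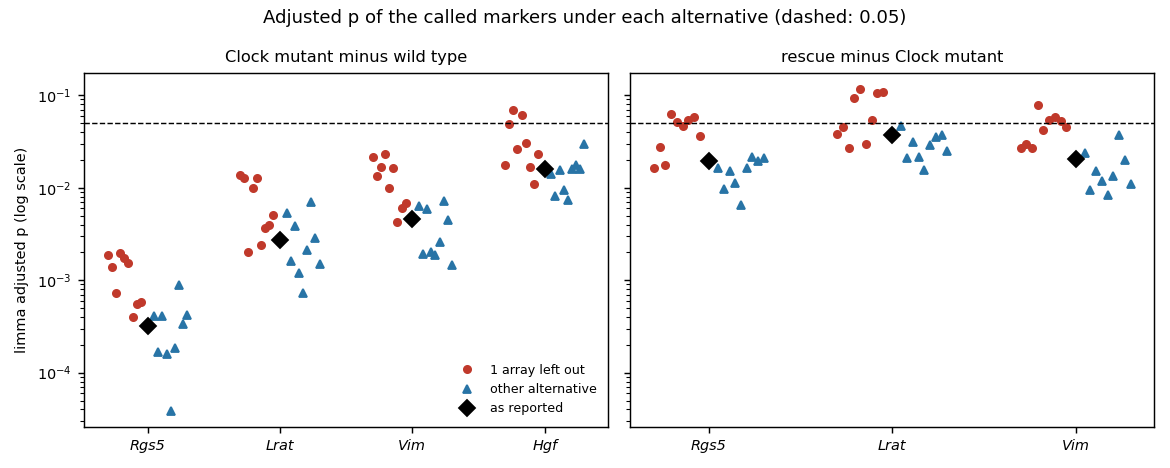
Adjusted p (log axis) of the markers called in each comparison, as reported (diamonds), with 1 of 9 arrays left out (circles) and under 9 other alternatives (triangles); the dashed line is 0.05. In mutant against wild type only circles of Hgf cross the line, and in rescue against mutant circles of Rgs5, Lrat and Vim cross it, while no triangle does.

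Other genes of stellate and mural cells were then counted, from lists that did not include the 10 markers. Of 23 other stellate cell markers, 2 fell in the mutants, 1 rose and 20 did not pass, with a median of 0.02. Dcn, the gene of the collagen-binding proteoglycan decorin, fell by 0.49 ± 0.10 on the log2 scale and rose by 0.38 ± 0.10 in rescue against mutant liver (limma adjusted p = 0.00425 and 0.0488). Rspo3, a Wnt-enhancing secreted factor, fell by 0.42 ± 0.12, and the collectin gene Colec11 rose by 0.31 ± 0.10. Prelp, a proteoglycan gene of the same list, rose by 0.41 ± 0.10 in rescue against mutant liver. Steap4, a metalloreductase gene, was lower in rescue than in wild type, at -0.55 ± 0.13 (adjusted p = 0.0492). The call of Dcn in the mutants held under all 18 alternatives, whereas its rise in rescue against mutant liver was lost with any 1 of the 9 arrays left out and under 2 of the 9 other alternatives. Prelp kept its call in 1 of the 9 fits with an array left out, Steap4 in 3, Colec11 in 2 and Rspo3 in 4, and each lost it under 1 to 3 of the other alternatives. The share of this list that fell in the mutants was thus near that of all genes, and whether it differs from the share of the 10 markers was not tested.

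Of 15 other mural cell and pericyte markers, 2 fell, 2 rose and 11 did not pass in the mutants. Their median difference was 0.14, against 0.07 over all genes, and only 3 of the 15 were below 0. Among all genes, 9.02% fell and 6.37% rose. Abcc9, which encodes the sulfonylurea receptor subunit of the pericyte potassium channel, read 8.88, 8.67 and 8.61 in wild type, 8.15, 8.14 and 8.15 in the mutants and 8.59, 8.48 and 8.63 in the rescue mice. Its mutant values lay apart below the rest, with -0.57 ± 0.10 against wild type and 0.42 ± 0.10 in rescue against mutant (limma adjusted p = 0.00216 and 0.04). Anpep, the aminopeptidase N gene, fell by 0.45 ± 0.10 from a bright mean of 10.59 in wild type. Which cells the Anpep RNA came from was not tested. Vtn, the vitronectin gene, which hepatocytes express strongly, rose by 0.38 ± 0.12, as did the transcription factor gene Tbx18 (0.45 ± 0.13), at levels that need not be above background in any group. The falls of Abcc9 and Anpep were called under all 18 alternatives. The rises of Vtn and Tbx18 were called in 4 and 5 of the 9 fits with an array left out and were lost under 2 other alternatives each, median centring among them. The rise of Abcc9 in rescue against mutant liver was called only without wild-type replicate 1 or 3 among those 9 fits, and was lost under 2 other alternatives.

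Among 17 matrix genes of activated stellate cells, 1 fell, none rose and 16 did not pass in the mutants, with a median of 0.11. The counts of lists in this paragraph stand beside 9.02% of all genes that fell and 6.37% that rose. The matrix gene that fell was Postn, which encodes the matricellular protein periostin. It read 7.22, 7.09 and 7.16 in wild type, 5.75, 5.72 and 5.95 in the mutants and 6.90, 6.53 and 6.69 in the rescue mice. The 3 groups did not overlap, and Postn fell by 1.35 ± 0.12 in the mutants and rose by 0.90 ± 0.12 in rescue against mutant liver (limma adjusted p = 7.57e-06 and 0.00127), called under all 18 alternatives in both comparisons. Of its mutant values only 1 of 3 was above the 95th percentile of the olfactory genes, so the sizes may be too small. Of 19 TGF-beta pathway genes, the signal that drives stellate cell activation, 2 fell: Smad2, an intracellular mediator, by 0.59 ± 0.10, and the receptor gene Tgfbr1 by 0.39 ± 0.09. Of 18 smooth muscle contractile genes 1 fell (Actn1, an actin crosslinker, at -0.64 ± 0.11) and 1 rose (the myosin kinase gene Mylk, at 0.34 ± 0.10).

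**Figure D4:**
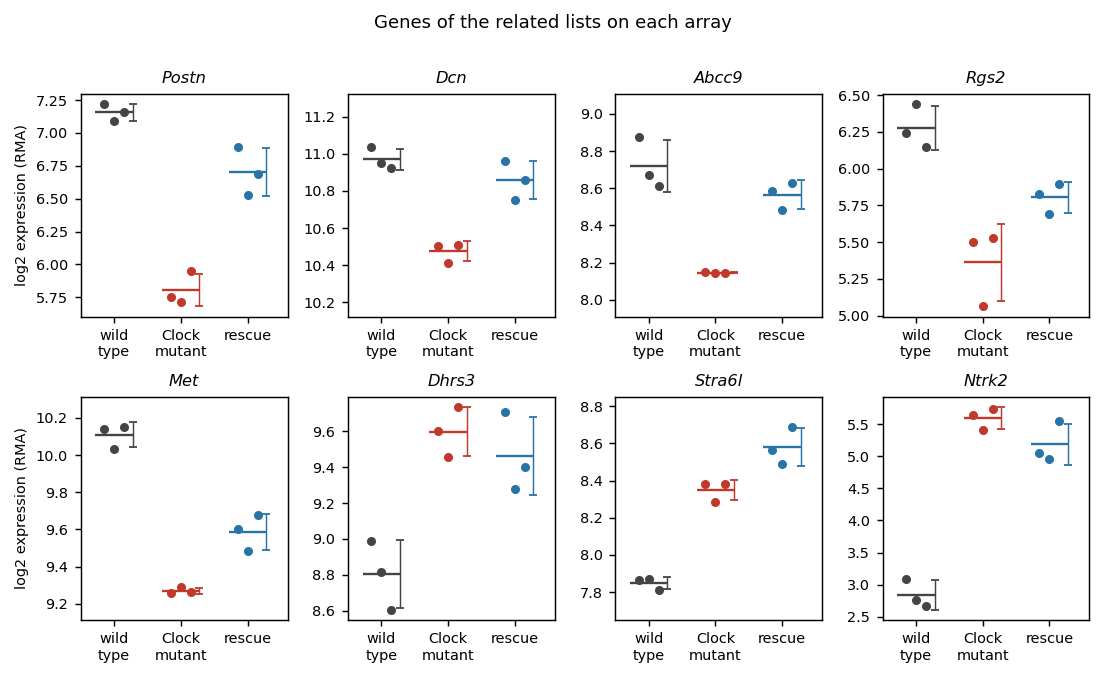
Log2 expression (RMA) on each of the 9 arrays of 8 genes from the related lists, each panel with its own vertical axis; points are mice, lines are group means and bars are the SD (n = 3). Postn, Dcn, Abcc9, Rgs2 and Met are lowest in the mutants, while Dhrs3, Stra6l and Ntrk2 are lowest in wild type.

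Lrat was set beside 23 measured genes of retinoid storage and handling, of which 3 rose in the mutants, none fell and 20 did not pass. Of all genes, 6.37% rose and 9.02% fell, and the median difference was 0.04 for the list and 0.07 over all genes. Dhrs3, a retinaldehyde reductase gene, rose by 0.79 ± 0.13, Stra6l, the gene of a receptor for retinol-binding protein, by 0.50 ± 0.10 and the retinol dehydrogenase gene Rdh11 by 0.42 ± 0.14 (limma adjusted p = 0.00142, 0.00375 and 0.0476). None of the 23 was called in rescue against mutant liver by limma, where 3.81% of all genes were. Dhrs3 and Stra6l were also higher in rescue than in wild-type liver, by 0.66 ± 0.13 and 0.73 ± 0.10. Lrat thus fell in the mutants while these 3 of the 23 genes, named because they were called, rose. In rescue against mutant liver Lrat rose while the 3 did not pass. With an array left out, that rise of Lrat was called in 4 of 9 fits, and the rise of Rdh11 in the mutants in 2. The rise of Rdh11 was also lost with median centring and with the trend over gene span removed.

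Hgf was set beside 13 genes of its pathway, of which 4 rose, 2 fell and 7 did not pass in the mutants. In that comparison 6.37% of all genes rose and 9.02% fell. Met, which encodes the HGF receptor of hepatocytes, read 10.14, 10.03 and 10.15 in wild type, 9.26, 9.29 and 9.26 in the mutants and 9.60, 9.48 and 9.68 in the rescue mice. Its 3 groups were apart, with -0.84 ± 0.10 in mutant and -0.52 ± 0.10 in rescue against wild type (limma adjusted p = 0.000122 and 0.0111). Gab1, the docking protein of the receptor, was lower in mutant (-0.45 ± 0.10) and rescue (-0.47 ± 0.10) than in wild type. Mst1, the gene of the related ligand MSP, rose by 0.45 ± 0.10, and the adaptor gene Grb2 by 0.41 ± 0.10.

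For Rgs5, 17 other RGS genes were measured, only 5 of them outside the dimmest 40%, and 1 fell and 1 rose. The counts in this paragraph are for mutant against wild type, where 9.02% of all genes fell and 6.37% rose. Rgs2, a regulator of Gq signalling, fell by 0.91 ± 0.13, with 6.15 to 6.44 in wild type, 5.06 to 5.53 in the mutants and 5.69 to 5.89 in the rescue mice, although the mutant values are below the 95th percentile of the olfactory genes. Rgs17, also dim, rose by 0.40 ± 0.12. For Vim and Des, 12 other intermediate filament genes were read, of which 2 rose and none fell: Krt8 and Krt18, the keratins of hepatocytes, at 0.62 ± 0.13 and 0.58 ± 0.13. Of 6 other PDGF ligand and receptor genes Pdgfc rose, by 0.57 ± 0.14. Of 11 reelin pathway genes Rapgef1, a guanine nucleotide exchange factor gene, fell, by 0.39 ± 0.10. Among 8 neurotrophin pathway genes Ntrk2, the BDNF receptor gene, rose by a measured 2.75 ± 0.16 with values of 2.66 to 3.10 in wild type and 5.40 to 5.74 in the mutants that all lie below the 95th percentile of the olfactory genes, and Traf6, a signalling adaptor gene, fell by 0.38 ± 0.11.

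Markers of neighbouring cell types moved in the same arrays. Of 21 liver endothelial markers 11 fell in the mutants and none rose, with Fcgr2b at -0.84 ± 0.10 and Bmp2 at -1.18 ± 0.15, and of 15 Kupffer cell markers 9 fell and none rose, with Vsig4 at -2.14 ± 0.13 and Cd68 at -1.19 ± 0.16, while 9.02% of all genes fell. With 1 array left out these counts were 9 to 12 and 7 to 9. The mean log2 level over the endothelial list was 7.58 to 7.73 in wild type, 7.17 to 7.23 in the mutants and 7.28 to 7.56 in the rescue mice. Over the Kupffer list it was 7.17 to 7.66, 6.73 to 6.76 and 6.89 to 7.06, and over the 10 stellate cell and pericyte markers 7.09 to 7.27, 6.85 to 6.96 and 7.05 to 7.17. In rescue against mutant liver 3 endothelial markers and 1 Kupffer marker rose, beside 2.61% of all genes. The endothelial count was 0 without Clock mutant replicate 1, rescue replicate 1 or rescue replicate 3, 1 without Clock mutant replicate 2 or 3 and 5 without rescue replicate 2, and the Kupffer count stayed at 1 with any array left out. Against wild type, 6 of 15 Kupffer and 2 of 21 endothelial markers were lower in rescue liver, where 1.35% of all genes were. Their part in the differences of Vim, Hgf and the other markers was not tested.

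Markers of other possible sources of these genes were also counted in the mutants. Of 12 portal fibroblast markers only Dpt, the dermatopontin gene, fell, by 0.52 ± 0.15. Of 7 mesothelial and 6 Schwann and nerve markers none was called by limma in mutant against wild type, where 15.4% of all genes were, and of 8 skeletal and heart muscle markers Tnnt3 rose, by 0.44 ± 0.13. Gpm6a, a membrane glycoprotein gene listed for mesothelium, rose by 0.92 ± 0.15 in rescue against mutant liver (limma adjusted p = 0.00839). None of 12 hepatocyte markers was called, and their mean log2 level was 11.7 to 11.9 in wild type, 11.8 to 11.9 in the mutants and 11.6 to 11.9 in the rescue mice.

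**Figure D5:**
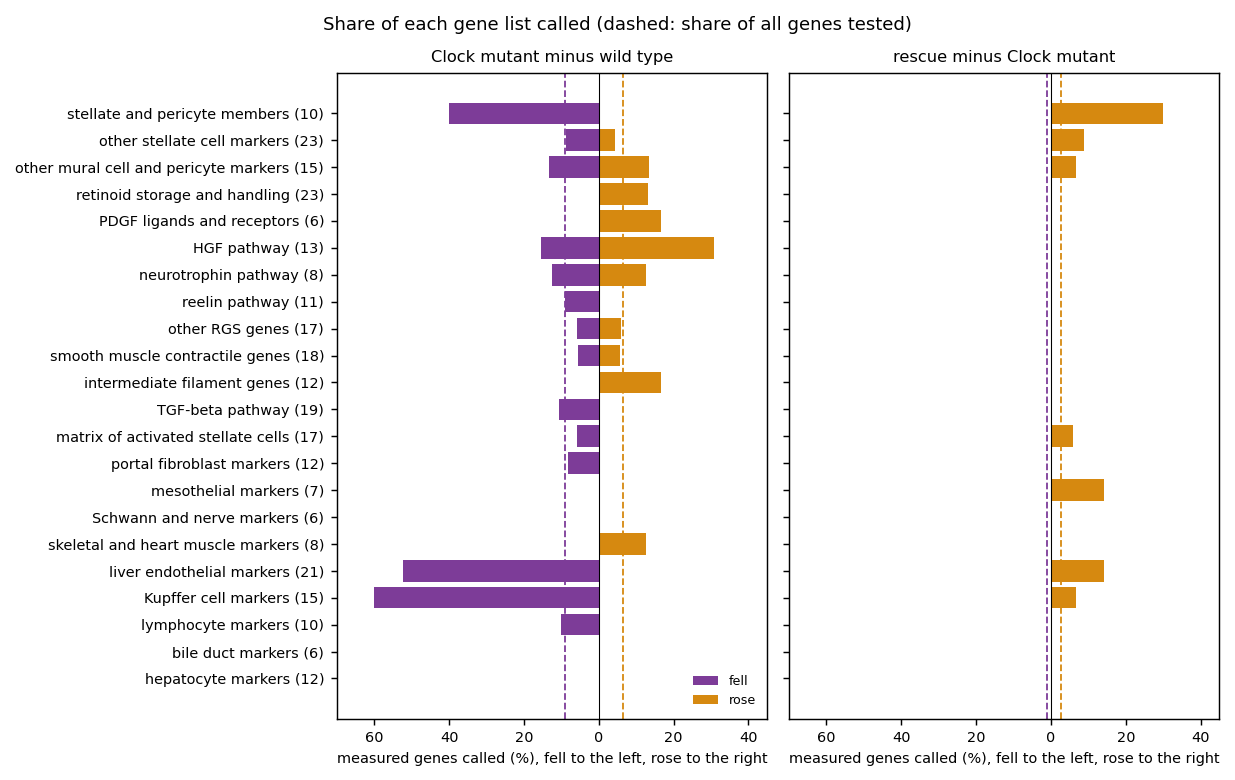
Percent of the measured genes of each list that fell (bars to the left) or rose (bars to the right) at an adjusted p under 0.05, in mutant against wild type and in rescue against mutant; the number measured is in parentheses and dashed lines give the shares over all 19938 genes. In the first panel the bars to the left are longest for the Kupffer, endothelial and the 10 stellate and pericyte genes.

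The genes whose levels ran most like those of the called markers were found by Pearson's r over the 9 arrays, among 11963 genes outside the dimmest 40%. For Rgs5 they were Nt5c3 (r = 0.988), Slc9a9 (0.985) and Asah1 (0.982), for Lrat Ctdspl2 (0.963), Mga (0.957) and Usp32 (0.956), for Vim Ctps2 (0.989), Cd2ap (0.981) and Zbtb6 (0.975), and for Hgf Mob1a (0.973), Cops3 (0.972) and Phlpp1 (0.970). No gene appeared for more than 1 marker. The 9 arrays share the difference between groups, which raises r for any gene that is low in the mutants, so these values describe the arrays and no test was made of them.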

How the data were processed

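Liver RNA of 9 mice was measured on 1 array each, in 3 groups of 3 taken from the labels. The authors deposited 1 log2 value for every probe set and array. They used RMA in Affymetrix Expression Console, per the submitters' processing notes; no version is stated there. Because RMA forces the arrays to a common distribution, a change shared by most genes would not show, and differences near background come out too small. That the scale is log2 was inferred from the values.

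Of 35556 probe sets, 21789 had 1 gene symbol in the platform annotation, 1621 had several and 12146 had none. Each gene was represented by its brightest probe set (mean of the 9 arrays), which gave 19938 genes. Group means were estimated over the 9 arrays together in limma 3.58.1 under R 4.3.3 (lmFit, eBayes). The fit had 6 residual and 8.47 prior degrees of freedom, the latter from the spread of all genes. Benjamini-Hochberg adjustment was made over all genes in each comparison, with calls at an adjusted p under 0.05. The model was tested on simulated data. Errors are SE unless named SD.

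The 10 members and the 21 other lists (296 symbols) were chosen with earlier results of these data known. Chosen by rule were all members, up to 4 called genes of smallest p in each list and comparison, and the 3 genes of highest r for each member called in the mutants. Not every gene chosen from the lists is described. Tried as alternatives were a second quantile normalization, median centring, dropping the dimmest 40% of genes, a block for replicate number, a trended and robust prior, array weights, only the 6 arrays of a comparison, the mean of all probe sets, a trend over gene span removed and each array left out. Promoter windows and gene spans came from RefSeq tables for GRCm38.p6; figures were drawn with matplotlib 3.10.9.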

Additional observations from a re-analysis of the deposited data

How the results depend on the processing

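In mutant against wild type, 4 of 10 markers were called under each of the 9 alternatives other than leaving out an array (of 9 markers without the dimmest 40% of genes, which drops Des), and 3 to 4 with 1 array left out. In rescue against mutant, 3 were called under the same 9 alternatives and 0 to 3 with 1 array left out, where fewer samples remain. In rescue against wild type none was called by limma under any of the alternatives; 2 had an unadjusted p under 0.05 in the fit as reported. The count of all genes called in rescue against mutant moved from 759 to 1178 without the dimmest 40% of genes, 1210 with a trended and robust prior and 1334 with array weights, and in rescue against wild type from 454 to 711 without the dimmest 40% of genes and 704 with a trended and robust prior. With each array centred on its median, which lowered the median of all genes in mutant against wild type by 0.08, calls over all genes split into 610 higher and 2272 lower, against 1270 and 1798 as reported, and in rescue against mutant into 780 higher and 126 lower, against 520 and 239. With the trend over gene span removed, the 4 falls in the mutants remained called.

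The replicate numbers are shared by the groups, but nothing in the labels says that they pair animals. Deviations from the group means of same-numbered arrays correlated at -0.11 to 0.19 over 9 pairs, 4 of them over 0.1, and 4 of 9 arrays were closest to their own number in both other groups. With the replicate block, 4, 3 and 0 markers were called in the 3 comparisons, as without it, and 3368 genes in all in mutant against wild type against 3068.

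Sign changes occurred in differences near 0 that were not called, and their cause was not tested. In rescue against mutant, Pdgfrb turned to -0.0115 with array weights and to -0.00301 with the span trend removed, and ranged from -0.0545 to 0.058 with 1 array left out. Tagln turned to -0.0175 with array weights and ranged from -0.0159 to 0.163. Ngfr turned to 0.0251 with median centring and to 0.00949 with the span trend removed, and ranged from -0.182 to 0.0609. In rescue against wild type, Vim turned to 0.0257 and Reln to 0.01003 with quantile normalization repeated, and they ranged from -0.077 to 0.045 and from -0.0845 to 0.05002. Ngfr ranged from -0.0425 to 0.201 there. In mutant against wild type, Acta2 ranged from -0.29 to 0.0411. Among the 10 markers, each lost call came from leaving out 1 array. The calls of the other genes chosen by the rule, not all of them described above, were followed too. Of these, 26 of 39 in mutant against wild type, 3 of 9 in rescue against mutant and 7 of 14 in rescue against wild type held under every alternative. With some array left out 13, 6 and 7 were lost, and under some other alternative 9, 5 and 2. Where the loss is not given with the list, Rgs17 and Tnnt3 lost their rise in the mutants with median centring and 2 other settings. Mylk lost its rise with median centring and Rapgef1 its fall with the mean of all probe sets. With an array left out, these calls held in 3 (Rgs17), 4 (Tnnt3), 3 (Mylk) and 5 (Rapgef1) of 9 fits. The mutant calls of Traf6, Dpt, Pdgfc and Tgfbr1 held in 4, 5, 6 and 8 of those 9 fits. In rescue against wild type, the calls of Gab1, Met and Dhrs3 held in 4, 6 and 7 of them. Kdr and Mrc1 (rescue against mutant) and Pdgfc (rescue against wild type) lost their calls with only the 6 arrays compared. Mrc1 also lost its call with the span trend removed. In the 9 fits with an array left out, Kdr was called in 5, Mrc1 in 1 and Pdgfc in 5. Of the markers only Des was below the olfactory 95th percentile on all 9 arrays.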
